A study of Mus musculus with 7 samples.

Results

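Gastrocnemius muscle of 8-week-old mice was compared with that of 4-week-old mice across all expressed genes. The comparison used 5 of the 7 RNAseq libraries of the study, 3 at 8 weeks and 2 at 4 weeks, each from the gastrocnemius of 1 mouse, and 14976 of 49568 gene symbols had enough counts to be tested. The remaining 2 libraries were from mice of 6 weeks. They entered the filter on counts, the scaling and the estimate of the spread, but neither of the means compared. All mice were C57Bl6/J by their labels and male by the study's methods, and no group carried a labelled allele or agent. The titles of the 8-week libraries give animal numbers followed by Ctl, which the titles at 4 weeks do not. In the methods of the study Ctl stands for littermates without CreER in experiments with tamoxifen. Whether the 8-week mice were such littermates or had been treated is not stated, so genotype or treatment cannot be told apart from age.

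Between weaning and young adulthood the fibers of a mouse hindlimb muscle grow in length and girth, in part by taking up new nuclei from satellite cells, the stem cells of muscle. Fetal isoforms of contractile proteins are replaced by adult ones, and the connective tissue around the fibers, built mainly by fibroblasts, slows its production of collagen. The gastrocnemius is a calf muscle made mostly of fast fibers, which contract quickly and rely on glycogen.

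Libraries held 30836057 to 41784144 counts. Mitochondrial ribosomal RNA from mt-Rnr2 took 25.1% to 37.4% of them and was lowest in 8 weeks replicate 2. Defining genes of muscle fibers were abundant in each library, and their summed level was 228800, 241548 and 216931 CPM at 8 weeks, against 152029 and 172033 CPM at 4 weeks. CPM are counts per 1000000 counts of a library, with library totals scaled by TMM (trimmed mean of M-values). Within this sum Ttn, titin, held most counts, while skeletal actin Acta1 and creatine kinase Ckm did not pass the test (log2 fold change 0.06, adjusted p = 0.775, and log2 fold change 0.04, adjusted p = 0.865). In whole muscle, fewer cells of a type and less RNA per cell cannot be told apart. Nothing says that the libraries of a group came from separate litters or preparations, and p-values measure only the spread between these libraries.

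At 8 weeks 1427 genes were higher and 1341 genes were lower than at 4 weeks, at an adjusted p under 0.05 by edgeR's quasi-likelihood test. Together these are 18.5% of the genes tested, 9.53% higher and 8.95% lower, and counts of gene lists are read against these shares. The median log2 fold change over all genes tested was −0.01. A difference of more than 2-fold was found in 236 higher and 417 lower genes. Of the 2768 genes that passed, 2764 did not overlap between the ages, so lack of overlap adds little to a call. Libraries were left out 1 at a time, and the 4-week libraries weighed most on the counts: with 4 weeks replicate 1 left out 1232 genes passed (3.41% of those tested higher, 4.56% lower), and with 4 weeks replicate 2 left out 786 (2.39% higher, 2.67% lower). Shares without 1 of the 8-week libraries were 8.25%, 8.66% and 8.20% higher and 7.44%, 8.40% and 7.52% lower (replicates 1, 2 and 3), and without 1 of the 6-week libraries 7.75% and 7.43% higher and 7.45% and 7.74% lower. Gene list counts without a library are to be read against these shares. Of the 786 genes, 754 were among the 2768 that passed with all libraries. Scaling by library totals instead of TMM moved the median of all genes to −0.198 and the split to 438 higher (2.92%) and 1942 lower (13.0%), so that 18.4% instead of 51.6% of the genes that passed were higher. Small increases are thus relative to the TMM scale. The plot of fold change against level shows small changes in the most abundant genes and the largest ones below 10 CPM.

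**Figure D1:**
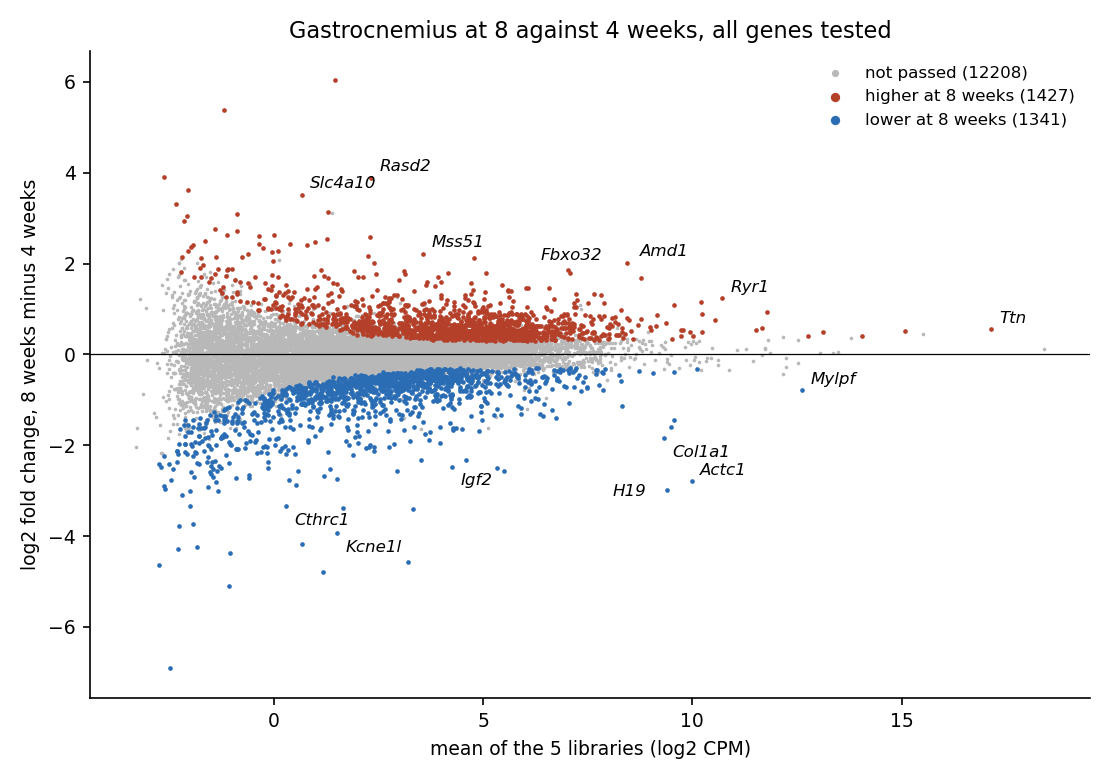
Log2 fold change at 8 weeks minus 4 weeks against the mean level of the 5 libraries in log2 CPM, for the 14976 genes tested. Red points (1427) were higher and blue points (1341) lower at 8 weeks at an adjusted p under 0.05. H19 and Actc1 are among the abundant genes with large decreases, while Ttn lies at the far right with a log2 fold change of 0.56.

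Among the largest increases was Rasd2, a small GTPase of the Ras family, with 6.39, 7.95 and 9.6 CPM at 8 weeks, against 0.61 and 0.453 CPM at 4 weeks (log2 fold change 3.89, standard error 0.254, adjusted p = 2.81e-05). All 3 libraries at 8 weeks were above 6 CPM and both at 4 weeks below 1 CPM. Mss51, a mitochondrial protein made mainly in skeletal muscle, had 19.7, 15.9 and 16 CPM at 8 weeks, against 4.33 and 3.07 CPM at 4 weeks (log2 fold change 2.22, standard error 0.214, adjusted p = 0.000157). Slc4a10, a sodium-coupled bicarbonate transporter, had 2.18, 2.4 and 2.86 CPM at 8 weeks, against 0.319 and 0.107 CPM at 4 weeks (log2 fold change 3.52, adjusted p = 0.000566). The actin-related gene Actr3b (log2 fold change 2.58, adjusted p = 0.000372) and Odf3l2 (log2 fold change 3.14, adjusted p = 0.000243) were also among the 12 largest increases. None of these 5 genes overlapped between the ages, and all of them passed whichever library was left out. Of the 12 largest increases, 3 were gene models without a name. Genes that overlapped between the ages were left out of the ranking of largest changes beforehand.

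Among the largest decreases was Kcne1l, which encodes an accessory subunit of potassium channels. It had 0.378, 0.462 and 0.417 CPM at 8 weeks, against 6.58 and 6.29 CPM at 4 weeks (log2 fold change −3.94, standard error 0.225, adjusted p = 1.15e-05), so that no library at 8 weeks reached 1 CPM. Cthrc1, a secreted protein with collagen-like repeats, had 0.324, 0.37 and 0.0642 CPM at 8 weeks, against 1.94 and 3.33 CPM at 4 weeks (log2 fold change −3.34, adjusted p = 0.000662). Fbn2, the fibrillin of developing elastic microfibrils (log2 fold change −2.88, adjusted p = 0.000671), and C1qtnf3, a secreted relative of complement C1q (log2 fold change −2.75, adjusted p = 0.000105), fell as well. Each of these 4 genes kept its call without any 1 library. So did AW551984, with 0.62, 0.585 and 0.77 CPM at 8 weeks, against 6.48 and 7.31 CPM at 4 weeks (log2 fold change −3.39, adjusted p = 0.000467).

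Imprinted genes, which are expressed from 1 parental allele and include fetal growth factors and long noncoding RNAs, were lower at 8 weeks. Of 20 tested members of the imprinted growth network, 14 were lower and 0 were higher, with a median log2 fold change of −1.32. H19 (chr7:142575529-142578143 of GRCm38) is a noncoding RNA that is abundant in fetal muscle and had 170, 200 and 164 CPM at 8 weeks, against 1425 and 1401 CPM at 4 weeks (log2 fold change −2.99, standard error 0.153, adjusted p = 7.14e-06), 1 of the 12 largest decreases. Its neighbor Igf2 (chr7:142650766-142666816), the fetal insulin-like growth factor, had 7.07, 6.19 and 7.12 CPM at 8 weeks, against 31.2 and 44.1 CPM at 4 weeks (log2 fold change −2.47, standard error 0.172, adjusted p = 3.66e-05). Both genes were several-fold lower in each 8-week library. From the Dlk1-Dio3 region of chromosome 12, Rian (chr12:109603940-109661716) had 17.4, 13.3 and 14.8 CPM at 8 weeks, against 75.5 and 105 CPM at 4 weeks (log2 fold change −2.57, adjusted p = 2.81e-05) and Meg3 (chr12:109541001-109571726) had 8.36, 9.06 and 8.47 CPM at 8 weeks, against 23 and 29.3 CPM at 4 weeks (log2 fold change −1.60, adjusted p = 4.29e-05). Cdkn1c, an imprinted inhibitor of cyclin-dependent kinases, had 9.9, 10.6 and 7.16 CPM at 8 weeks, against 44.9 and 48.2 CPM at 4 weeks (log2 fold change −2.33, adjusted p = 8.09e-05). For the whole network 13 genes were lower without 4 weeks replicate 2, and 14 with any other 1 library left out.

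These transcripts also carry microRNAs, short RNAs that repress target mRNAs through their seed (bases 2 to 8). By GRCm38 coordinates and strand, RefSeq (GRCm38.p6) places 2 mature miRNAs inside H19, 2 inside Igf2, 6 inside Rian and 3 inside Meg3. Mature miRNAs themselves were not measured here. The sequences below are those inside H19 and Igf2 and 1 of those inside Rian, shown because their host RNAs fell together, with the seed in capitals. No 2 of the 13 miRNAs share a seed.
mmu-miR-675-5p (H19): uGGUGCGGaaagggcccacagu
mmu-miR-675-3p (H19): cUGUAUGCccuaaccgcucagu
mmu-miR-483-5p (Igf2): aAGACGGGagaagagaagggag
mmu-miR-483-3p (Igf2): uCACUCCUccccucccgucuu
mmu-miR-370-3p (Rian): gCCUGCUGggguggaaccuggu

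Genes of cell division were lower at 8 weeks as well. Of 30 tested genes of the cell cycle and DNA replication, 18 were lower and 1 was higher, with a median log2 fold change of −1.24. Cdkn1c, the inhibitor of cyclin-dependent kinases given above, is counted among the lower genes. Mki67, a nuclear protein of cycling cells (chr7:135689784-135716361), had 1.91, 1.36 and 1.48 CPM at 8 weeks, against 4.3 and 8.4 CPM at 4 weeks (0.251 times as high at 8 weeks by the fit, adjusted p = 0.00127). Top2a, the topoisomerase that untangles DNA in dividing cells, had 1.02, 0.493 and 1.12 CPM at 8 weeks, against 3.4 and 6.69 CPM at 4 weeks (log2 fold change −2.51, adjusted p = 0.00119). The 2 libraries at 4 weeks differed in these genes, and 4 weeks replicate 2 was the higher one in both. Ccnd1, cyclin D1, which drives entry into the cycle, had 5.23, 5.11 and 5.78 CPM at 8 weeks, against 10.1 and 10.8 CPM at 4 weeks (log2 fold change −0.96, adjusted p = 0.000577). With 4 weeks replicate 2 left out 7 genes were lower, and Mki67, Top2a and Ccnd1 were among those that passed. The gene that was higher, the mitotic kinase Aurka (log2 fold change 0.89, adjusted p = 0.00452), lost its call without that library (adjusted p = 0.0731).

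Contractile proteins of fetal muscle were lower at 8 weeks too. Of 9 tested genes of developmental sarcomere and receptor isoforms, 6 were lower and 0 were higher, with a median log2 fold change of −1.15. Actc1 (chr2:114047282-114053548), the cardiac actin that fetal skeletal muscle also makes, had 301, 299 and 303 CPM at 8 weeks, against 2009 and 2164 CPM at 4 weeks (log2 fold change −2.79, standard error 0.199, adjusted p = 3.66e-05). The 3 libraries at 8 weeks lay within 5 CPM of each other. Its adult counterpart Acta1 had 10511, 12628 and 11517 CPM at 8 weeks, against 11177 and 10998 CPM at 4 weeks, and its groups overlapped. The embryonic myosin Myh3 had 1.35, 1.05 and 1.44 CPM at 8 weeks, against 3.08 and 2.61 CPM at 4 weeks (log2 fold change −1.15, adjusted p = 0.00378), and the perinatal myosin Myh8 had 2.91, 2.43 and 3.05 CPM at 8 weeks, against 4.57 and 4.93 CPM at 4 weeks (log2 fold change −0.76, adjusted p = 0.00771). Ankrd1, a titin-binding protein of the fetal and stressed sarcomere, fell (log2 fold change −1.82, adjusted p = 0.000729), as did the myosin-binding protein Mybph (log2 fold change −1.41, adjusted p = 0.0066) and the cardiac troponin Tnnt2 (log2 fold change −1.45, adjusted p = 0.00931). Myl4 (log2 fold change −0.12, adjusted p = 0.755), Myl6b (log2 fold change −0.73, adjusted p = 0.121) and Xirp1 (log2 fold change −0.61, adjusted p = 0.076) did not pass. With 4 weeks replicate 2 left out 3 genes were lower (Actc1, Myh3 and Ankrd1), and the adjusted p was 0.0816 for Myh8, 0.1 for Mybph and 0.0873 for Tnnt2.

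Among 13 tested myogenic regulators and fusion genes, 3 were higher and 1 was lower. Myog, the transcription factor that drives differentiation of myoblasts, had 1.62, 2.77 and 2.09 CPM at 8 weeks, against 6.13 and 11.5 CPM at 4 weeks (log2 fold change −2.03, standard error 0.28, adjusted p = 0.000976), and its groups did not overlap. Six4, a homeobox factor of the fast fiber program, had 36.1, 31.8 and 34.6 CPM at 8 weeks, against 22.9 and 22 CPM at 4 weeks (log2 fold change 0.61, adjusted p = 0.0029). Both kept their call without any 1 library. Mef2d, a MADS-box factor that acts with the myogenic regulators, was higher too (log2 fold change 0.56, adjusted p = 0.0315), but its call was lost when 1 of the 4-week libraries was left out (adjusted p = 0.148 without replicate 1 and 0.163 without replicate 2). The same held when 8 weeks replicate 3 was removed (0.058) and when library totals set the scale (0.135). The list counted 1 higher without either 4-week library or with library totals, and 5 higher without 8 weeks replicate 2 or with the trend on transcript length and GC content removed.

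Actin and myosin light chain genes are classic targets of serum response factor, which binds the CArG box. RefSeq promoters of GRCm38.p6 (250 bases before to 50 after the start of the gene) were searched on both strands for its exact form. This is CC, a fixed run of A or T bases, then GG, and 1.63% of all 32851 promoters held it. The promoters of Actc1, Myl9 (a light chain of smooth muscle, log2 fold change −1.19, adjusted p = 0.000467) and Acta1 held 1 match each. The windows of Acta2, Ankrd1 and Csrp3 held no exact match. Variants of the box with a mismatch were not searched, so these genes are not shown to lack one. The 3 promoters with a match are shown with the CArG box in capitals, since 2 of the genes fell and Acta1 did not pass. The match started 47 bases before the start in Actc1, 161 in Myl9 and 73 in Acta1.
Actc1, chr2:114052826-114053125, minus strand: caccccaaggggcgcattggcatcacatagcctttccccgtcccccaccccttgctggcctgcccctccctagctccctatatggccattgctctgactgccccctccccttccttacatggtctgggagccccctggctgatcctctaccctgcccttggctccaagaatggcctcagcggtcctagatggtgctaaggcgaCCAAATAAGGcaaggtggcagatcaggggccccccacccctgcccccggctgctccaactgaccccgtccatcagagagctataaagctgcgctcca
Myl9, chr2:156775214-156775513, plus strand: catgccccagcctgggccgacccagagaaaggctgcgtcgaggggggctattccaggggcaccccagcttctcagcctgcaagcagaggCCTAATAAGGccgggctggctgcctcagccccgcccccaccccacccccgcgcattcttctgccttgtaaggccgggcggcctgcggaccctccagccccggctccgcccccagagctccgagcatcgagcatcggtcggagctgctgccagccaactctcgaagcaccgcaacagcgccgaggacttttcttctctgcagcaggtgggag
Acta1, chr8:123894726-123895025, minus strand: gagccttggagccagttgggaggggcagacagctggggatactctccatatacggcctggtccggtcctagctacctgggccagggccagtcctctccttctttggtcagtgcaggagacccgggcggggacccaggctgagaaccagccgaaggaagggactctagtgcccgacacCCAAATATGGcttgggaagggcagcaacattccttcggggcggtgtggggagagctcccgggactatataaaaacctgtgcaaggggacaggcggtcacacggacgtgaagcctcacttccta
A match is a description of letters and does not show binding.

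**Figure D2:**
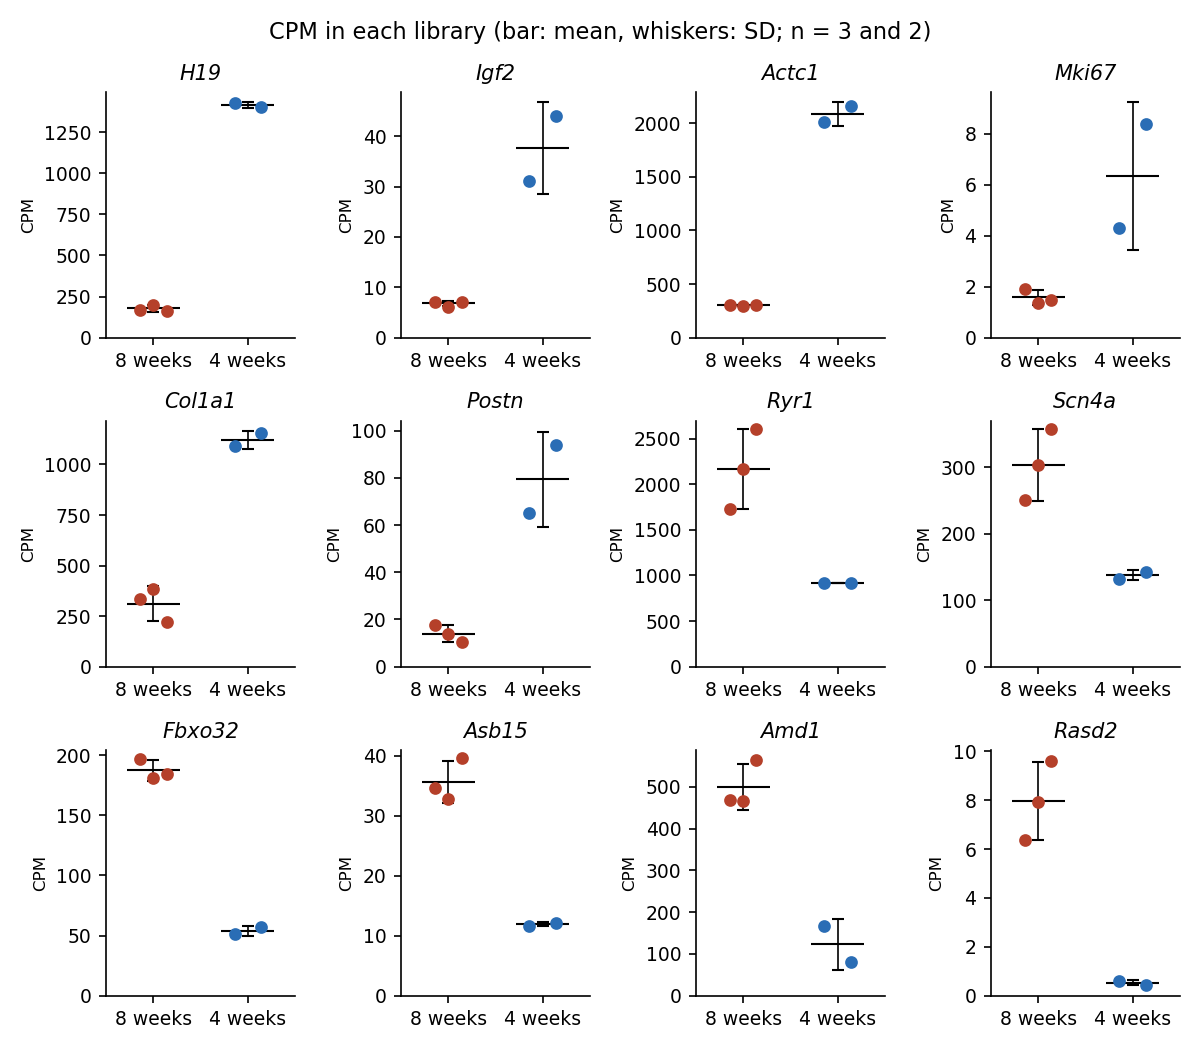
CPM of 12 genes in each library, with 8 weeks on the left (red, n = 3) and 4 weeks on the right (blue, n = 2), bars for means and whiskers for the SD. No gene shown overlaps between the ages. H19, Igf2, Actc1, Mki67, Col1a1 and Postn are lower and Ryr1, Scn4a, Fbxo32, Asb15, Amd1 and Rasd2 higher at 8 weeks.

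Connective tissue genes were lower across several lists. Of 11 fibrillar collagen genes, 9 were lower and 0 were higher, with a median log2 fold change of −1.45. The count was 9 without any 1 library and with library totals. Themes of matrix, integrin, AMPK and calcium genes come from the study, which reported them from these libraries, and counts of these lists are not independent of it. Col1a1 (chr11:94936224-94953042), a chain of type I collagen that gives tendon and muscle sheaths their strength, had 334, 384 and 219 CPM at 8 weeks, against 1089 and 1154 CPM at 4 weeks (log2 fold change −1.84, standard error 0.215, adjusted p = 0.000448). Its partner chain Col1a2 had 450, 443 and 294 CPM at 8 weeks, against 1087 and 1323 CPM at 4 weeks (log2 fold change −1.61, adjusted p = 0.000519). Col3a1, the collagen of fine reticular fibers, had 505, 493 and 350 CPM at 8 weeks, against 1216 and 1243 CPM at 4 weeks (log2 fold change −1.45, adjusted p = 0.000325). In all 3 genes 8 weeks replicate 3 was the lowest library. The minor fibrillar chains Col5a2 (log2 fold change −1.09, adjusted p = 0.000302) and Col11a1 (log2 fold change −1.67, adjusted p = 0.000374), which set the width of fibrils, fell too. Col2a1, the collagen of cartilage, had 0.836, 0.832 and 0.481 CPM at 8 weeks, against 4.03 and 5.23 CPM at 4 weeks (log2 fold change −2.68, adjusted p = 0.000302). Col24a1 (log2 fold change −0.28, adjusted p = 0.148) and Col27a1 (log2 fold change −0.34, adjusted p = 0.305) did not pass.

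Other interstitial collagens moved mostly in the same direction, with 10 of 18 lower and 2 higher and a median log2 fold change of −0.74. Col8a1, a short-chain collagen of vessels, had 7.69, 6.28 and 6.03 CPM at 8 weeks, against 15.9 and 18.5 CPM at 4 weeks (log2 fold change −1.37, adjusted p = 0.000175). Col12a1, which links fibrils to their surroundings, had 44.8, 34.3 and 33.2 CPM at 8 weeks, against 77.2 and 110 CPM at 4 weeks (log2 fold change −1.32, adjusted p = 0.000687). Col6a2, a chain of the type VI collagen that borders the basement membrane of fibers, had 62.6, 69.3 and 61.5 CPM at 8 weeks, against 102 and 111 CPM at 4 weeks (log2 fold change −0.73, adjusted p = 0.000838). The 3 genes passed without any 1 library. Col9a1 and Col7a1 were higher (log2 fold change 1.70, adjusted p = 0.00371, and log2 fold change 1.01, adjusted p = 0.0113), and both lost the call without 4 weeks replicate 2 (adjusted p = 0.0564 and 0.136).

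Enzymes and chaperones that make and cross-link collagen fell with it. Of 26 genes for collagen processing and cross-linking, 16 were lower and 0 were higher, with a median log2 fold change of −0.66. Serpinh1, the chaperone of procollagen in the endoplasmic reticulum, had 55.9, 51.9 and 45.7 CPM at 8 weeks, against 127 and 128 CPM at 4 weeks (log2 fold change −1.32, standard error 0.104, adjusted p = 6.02e-05). Loxl2, a lysyl oxidase that cross-links collagen outside the cell, had 14.3, 11.7 and 12.2 CPM at 8 weeks, against 26.2 and 31 CPM at 4 weeks (log2 fold change −1.17, adjusted p = 0.000228). Plod2 (log2 fold change −1.37, adjusted p = 0.000314) and Fkbp10 (log2 fold change −1.12, adjusted p = 0.000688), which act on lysines and on the folding of procollagen, fell by similar amounts. In the fit without 4 weeks replicate 2 it was 9 genes, and all 4 of these genes were among them.

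Of 30 matricellular, proteoglycan and elastic fiber genes, 20 were lower and 1 was higher, with a median log2 fold change of −0.80. Postn, periostin, a matricellular protein of growing and healing tissue (chr3:54361109-54391037), had 17.6, 14 and 10.4 CPM at 8 weeks, against 65.3 and 93.8 CPM at 4 weeks (log2 fold change −2.50, standard error 0.206, adjusted p = 7.97e-05). Mfap4, a microfibril protein, had 5.77, 3.94 and 3.34 CPM at 8 weeks, against 15.7 and 28.2 CPM at 4 weeks (log2 fold change −2.33, adjusted p = 0.000362). Eln, elastin, had 11.7, 12.3 and 7.45 CPM at 8 weeks, against 28.9 and 36.2 CPM at 4 weeks (log2 fold change −1.63, adjusted p = 0.000372), and the large proteoglycan Vcan had 24.5, 22.6 and 22.2 CPM at 8 weeks, against 49.9 and 44.7 CPM at 4 weeks (log2 fold change −1.03, adjusted p = 0.000157). In these 4 genes every 8-week library was below both 4-week libraries. The gene that was higher was Prelp, a leucine-rich proteoglycan that anchors basement membranes, with 20.8, 19.6 and 18 CPM at 8 weeks, against 12.1 and 10.3 CPM at 4 weeks (log2 fold change 0.80, adjusted p = 0.00204). The lower count was 13 without 4 weeks replicate 2, a change of more than 1.5-fold.

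Of 22 basement membrane genes, 9 were lower and 1 was higher, with a median log2 fold change of −0.32. Lamb1 (log2 fold change −0.70, adjusted p = 0.000739), Col4a1 (log2 fold change −0.74, adjusted p = 0.00104), Nid1 (log2 fold change −0.61, adjusted p = 0.00197) and Col15a1 (log2 fold change −0.73, adjusted p = 0.000671) fell, and none of the 4 lost its call without any 1 library. The lower count was 5 without 4 weeks replicate 1 and 5 without 4 weeks replicate 2. Integrin receptors, which bind cells to this matrix, were lower in 5 of 21 subunits and higher in 3, and with library totals 6 were lower and 1 higher. Itga9 (log2 fold change −0.69, adjusted p = 0.00426) and Itga1 (log2 fold change −0.56, adjusted p = 0.0051) were lower, and Itgb6 (log2 fold change 0.56, adjusted p = 0.00447) and Itgb5 (log2 fold change 0.77, adjusted p = 0.00576) were higher. Only 1 subunit passed without 4 weeks replicate 2, which was higher, and the adjusted p was 0.0648 for Itga9, 0.0721 for Itga1 and 0.0653 for Itgb6. With library totals it was 0.106 for Itgb6. Itgb5 was lost without 4 weeks replicate 1 (adjusted p = 0.0762).

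**Figure D3:**
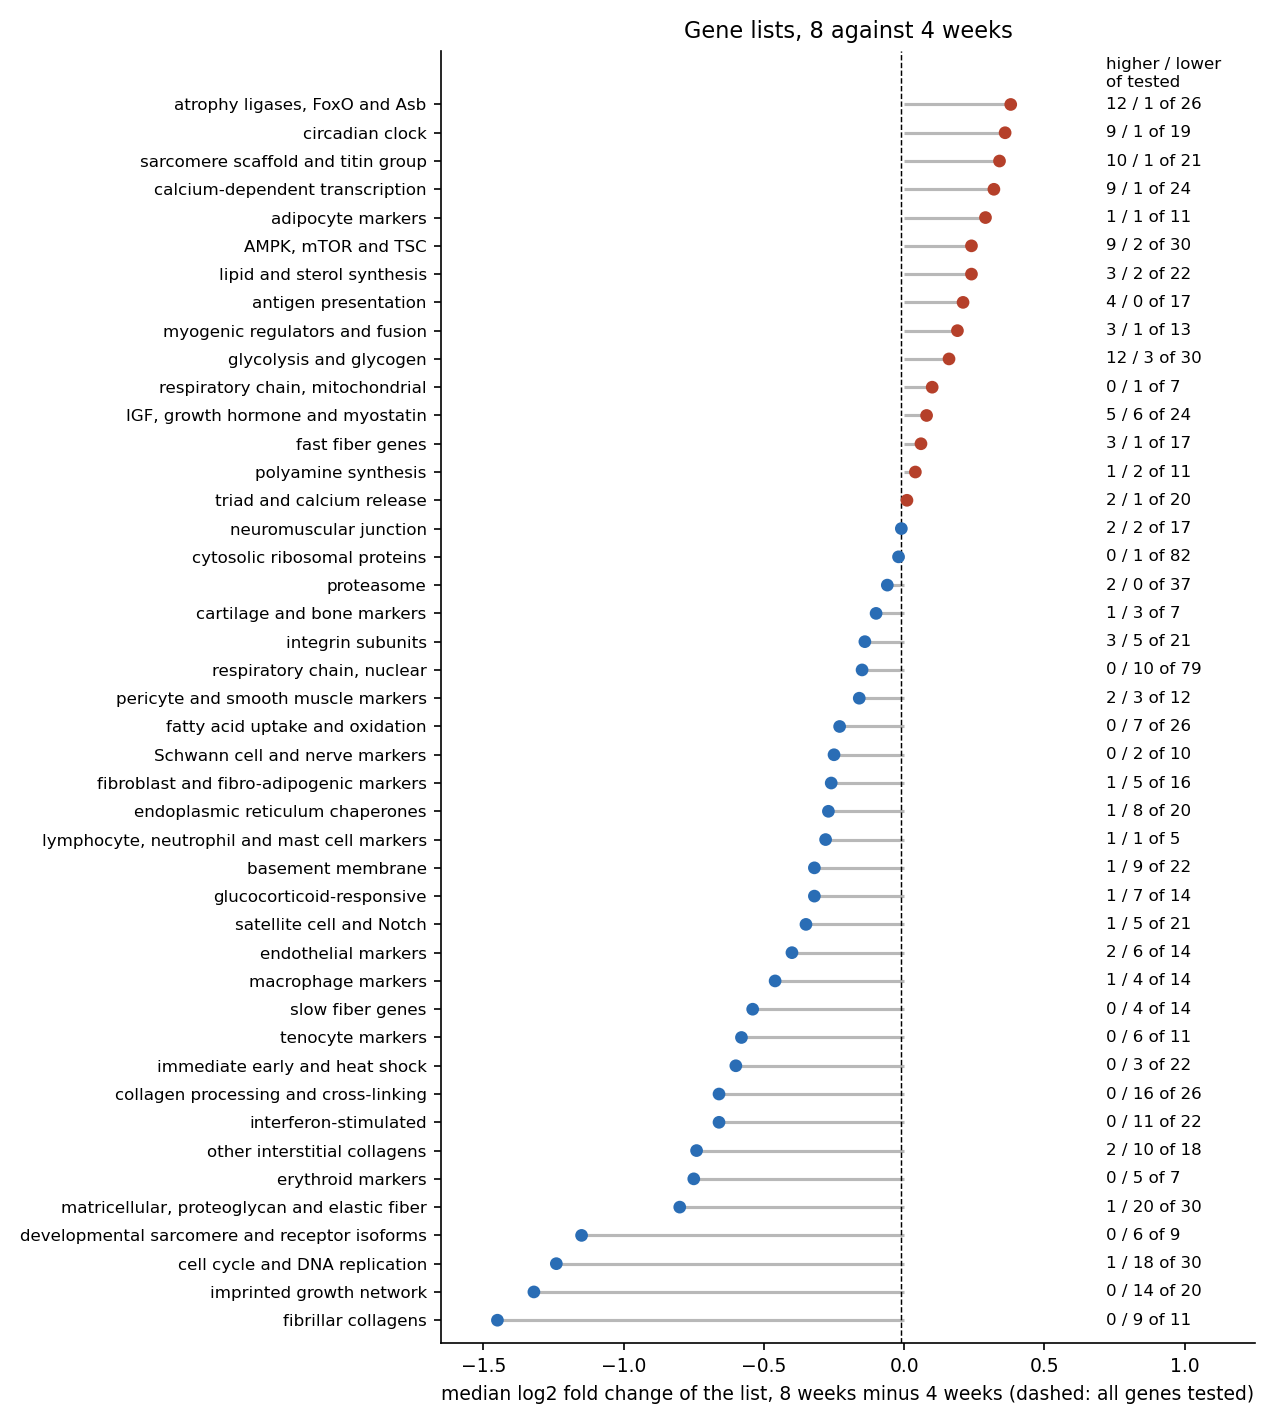
Median log2 fold change at 8 weeks minus 4 weeks of each of 44 gene lists, with the number of tested members that were higher and lower at an adjusted p under 0.05 and the number tested. Fibrillar collagens (−1.45), imprinted genes (−1.32) and cell cycle genes (−1.24) lie lowest, and the list of atrophy ligases (0.38) lies highest. The dashed line is the median of all genes tested (−0.01).

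Of 21 genes of the sarcomere scaffold and titin group, which encode giant and scaffold proteins of the adult sarcomere, 10 were higher, 1 was lower and the others did not pass, with a median log2 fold change of 0.34. Cmya5, myospryn, which ties the sarcomere to costameres and dysferlin vesicles, had 4525, 4499 and 4112 CPM at 8 weeks, against 2149 and 2448 CPM at 4 weeks (log2 fold change 0.93, standard error 0.117, adjusted p = 0.000662). The intermediate filament protein Synm had 534, 526 and 505 CPM at 8 weeks, against 288 and 319 CPM at 4 weeks (log2 fold change 0.78, adjusted p = 0.000803), and Nrap, a scaffold of nascent myofibrils, had 753, 806 and 776 CPM at 8 weeks, against 460 and 501 CPM at 4 weeks (log2 fold change 0.70, adjusted p = 0.00399). These 3 genes passed without any 1 library. Ttn, which spans the sarcomere as a molecular spring, had 167290, 171479 and 153511 CPM at 8 weeks, against 103613 and 119126 CPM at 4 weeks (log2 fold change 0.56, standard error 0.142, adjusted p = 0.0201), and Neb, which sets the length of thin filaments, had 19538, 19013 and 18117 CPM at 8 weeks, against 13636 and 14790 CPM at 4 weeks (log2 fold change 0.41, adjusted p = 0.0344). In both, every 8-week library was above both 4-week libraries. Neither call held in each fit, with an adjusted p of 0.155 and 0.213 without 4 weeks replicate 1, 0.0771 and 0.136 without 4 weeks replicate 2, 0.0571 and 0.093 without 8 weeks replicate 1, and 0.25 and 0.427 with library totals. Neb also missed it without either 6-week library (adjusted p = 0.0619 and 0.0717). Xirp2 (log2 fold change 0.54, adjusted p = 0.00791) lost its call without either 4-week library (adjusted p = 0.0822 and 0.0572), and Pdlim7, the gene that was lower (log2 fold change −0.57, adjusted p = 0.00674), without 4 weeks replicate 2 (adjusted p = 0.0685). The list counted 3 higher and 1 lower without 4 weeks replicate 1, 4 and 0 without 4 weeks replicate 2, and 4 and 3 with library totals, and 3 were lower without 8 weeks replicate 3.

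Fold change moved with transcript length. In the shortest of 5 equal bins (56 to 1849 bases) 5.37% of genes were higher and 9.60% lower, while in the longest (5195 to 123179 bases) 18.9% were higher and 8.57% lower. Median log2 fold changes of these bins were −0.08 and 0.10. Ttn and Neb are among the longest genes tested, while Pdlim7 of the same list lies in the middle bin (2829 to 3813 bases). With the trend on length and GC content removed, an alternative chosen after seeing the data, 12.7% of all genes were higher and 9.30% lower, 19% of the longest genes were higher and 12.1% lower, Ttn no longer passed (adjusted p = 0.257), and neither did Neb (adjusted p = 0.0836). The sarcomere scaffold list then counted 9 higher and 3 lower. What produces the trend was not tested.

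**Figure D4:**
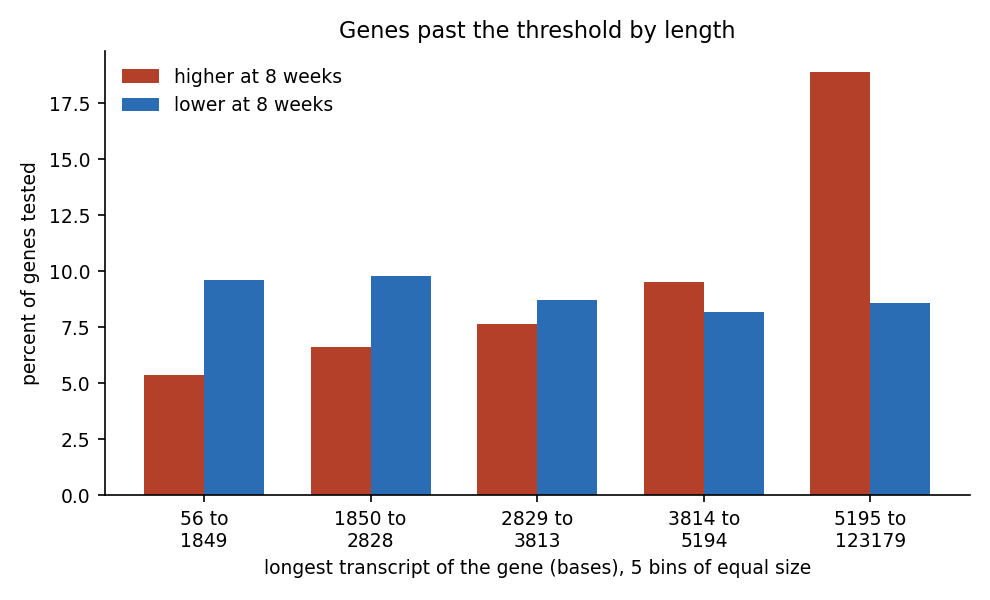
Percent of genes tested that were higher (red) and lower (blue) at 8 weeks, in 5 equal bins of the length of the longest transcript in bases. The share higher runs from 5.37% in the shortest bin to 18.9% in the longest, while the share lower stays between 8.20% and 9.79%.

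Of 20 triad genes of excitation and calcium release 2 were higher and 1 was lower, with a median log2 fold change of 0.01. The 15% that passed is near the 18.5% of all genes tested. Ryr1 (chr7:29003344-29125179), the calcium release channel of the sarcoplasmic reticulum, had 1730, 2166 and 2609 CPM at 8 weeks, against 921 and 920 CPM at 4 weeks (log2 fold change 1.24, standard error 0.183, adjusted p = 0.00136). Its levels at 4 weeks were nearly equal, while 8 weeks replicate 3 was the highest library. Cacna1s, the voltage sensor that opens it, had 614, 728 and 602 CPM at 8 weeks, against 374 and 466 CPM at 4 weeks (log2 fold change 0.63, adjusted p = 0.00872), but an adjusted p of 0.111 without 4 weeks replicate 1 and 0.11 with library totals. Sypl2, a membrane protein of the triad, was lower (log2 fold change −0.67, adjusted p = 0.00271). On the surface, Scn4a, the sodium channel of the muscle action potential, had 250, 303 and 358 CPM at 8 weeks, against 132 and 143 CPM at 4 weeks (log2 fold change 1.14, standard error 0.151, adjusted p = 0.000812).

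Scn4a was counted with the neuromuscular junction, where 2 of 17 tested genes were higher and 2 lower. Musk, the receptor kinase that organizes the postsynaptic membrane, had 35.6, 43.1 and 48.8 CPM at 8 weeks, against 24.9 and 24 CPM at 4 weeks (log2 fold change 0.80, adjusted p = 0.00335). The acetylcholine receptor subunits Chrnb1 (log2 fold change −0.86, adjusted p = 0.00271) and Chrna1 (log2 fold change −0.58, adjusted p = 0.0424) were lower. Scn4a and Musk passed without any 1 library. Without 4 weeks replicate 2 both receptor subunits missed the threshold (adjusted p = 0.0502 and 0.514). Chrna1 also missed it without any other 1 library except 4 weeks replicate 1 (adjusted p = 0.0554 to 0.0851). The list counted 4 lower without 8 weeks replicate 3.

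Of 17 fast fiber genes 3 were higher and 1 was lower (median log2 fold change 0.06). The 23.5% that passed compares with 18.5% of all genes tested. Myh4, the myosin of the fastest fibers, had 37877, 42291 and 38671 CPM at 8 weeks, against 25477 and 29662 CPM at 4 weeks (log2 fold change 0.52, adjusted p = 0.0193), and the calcium pump Atp2a1 had 9016, 10317 and 10692 CPM at 8 weeks, against 6621 and 7604 CPM at 4 weeks (log2 fold change 0.49, adjusted p = 0.0245). Neither passed without 4 weeks replicate 1 (adjusted p = 0.165 and 0.191), without 4 weeks replicate 2 (0.0675 and 0.0825) or with library totals (0.262 and 0.272). Mylk2, the kinase that phosphorylates the regulatory light chain in fast fibers, had 149, 161 and 228 CPM at 8 weeks, against 93.8 and 99.5 CPM at 4 weeks (log2 fold change 0.89, adjusted p = 0.00471). Its substrate Mylpf, the fast regulatory light chain, had 4926, 5506 and 4216 CPM at 8 weeks, against 8292 and 8513 CPM at 4 weeks (log2 fold change −0.78, standard error 0.141, adjusted p = 0.00381), so that kinase and substrate moved in opposite directions. Both kept their call without any 1 library. The higher count was 1 without either 4-week library or with library totals, 5 without 8 weeks replicate 3 and 6 with the length and GC trend removed.

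Of 14 slow fiber genes 4 were lower, 0 were higher and the others did not pass, with a median log2 fold change of −0.54. Casq2, the calcium-binding protein of the slow and cardiac sarcoplasmic reticulum, had 17, 18.8 and 12 CPM at 8 weeks, against 46.6 and 55.7 CPM at 4 weeks (log2 fold change −1.68, standard error 0.16, adjusted p = 0.000154). Csrp3, a Z-disc protein of slow and cardiac muscle, had 13.9, 14.4 and 10.6 CPM at 8 weeks, against 34.7 and 25.4 CPM at 4 weeks (log2 fold change −1.21, adjusted p = 0.00129). The slow troponins Tnni1 and Tnnt1 set 8 weeks replicate 2 apart. Tnni1 had 7.85, 15.8 and 8.18 CPM at 8 weeks, against 18.8 and 24 CPM at 4 weeks (log2 fold change −1.02, adjusted p = 0.0171), and Tnnt1 had 12.6, 24.5 and 13.7 CPM at 8 weeks, against 26 and 33.2 CPM at 4 weeks (log2 fold change −0.81, adjusted p = 0.0326). The count was 11 lower without 8 weeks replicate 2 and 8 with library totals, and without 4 weeks replicate 2 it was 2, with an adjusted p of 0.151 for Tnni1 and 0.24 for Tnnt1. By the DESeq2 Wald test these were 0.0618 and 0.118. Tnnt1 also missed the threshold without 4 weeks replicate 1 (0.0598), 8 weeks replicate 1 (0.0855) or 8 weeks replicate 3 (0.068). As a median over the list, log2 CPM relative to the average library was −0.52, 0.06 and −0.53 at 8 weeks, against 0.13 and 0.43 at 4 weeks. How much of each fiber type each sample held was not tested.

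**Figure D5:**
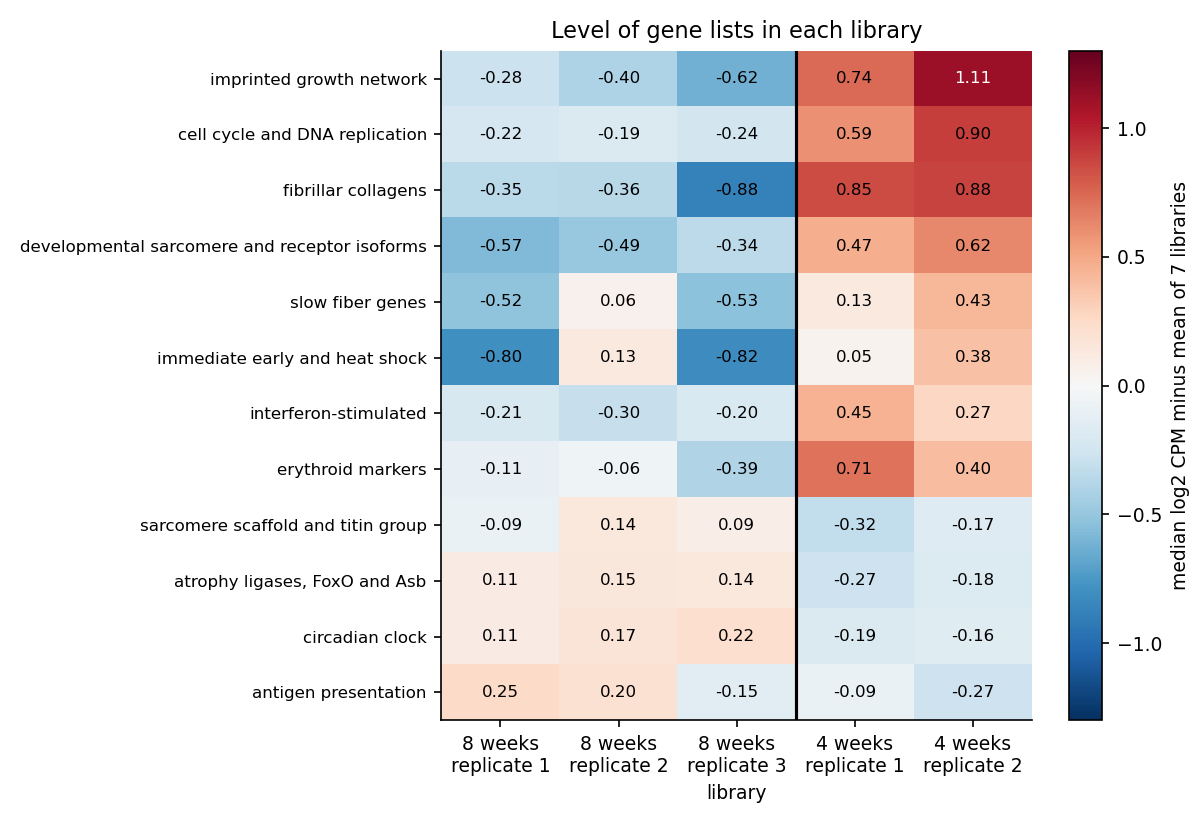
Median over each gene list of log2 CPM minus the mean of the 7 libraries, for the 3 libraries at 8 weeks (left) and the 2 at 4 weeks (right). In the imprinted, cell cycle and collagen lists every 8-week library lies below both 4-week libraries. In the slow fiber and immediate early lists 8 weeks replicate 2 lies near the 4-week libraries (0.06 and 0.13).

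Of 30 genes of glycolysis and glycogen breakdown, 12 were higher, 3 were lower and the others did not pass, with a median log2 fold change of 0.16. Pfkm, the muscle phosphofructokinase that limits the rate of glycolysis, had 1659, 1772 and 1912 CPM at 8 weeks, against 1069 and 1038 CPM at 4 weeks (log2 fold change 0.76, standard error 0.109, adjusted p = 0.00117). Pygm, the muscle glycogen phosphorylase, had 3528, 3887 and 3799 CPM at 8 weeks, against 2471 and 2546 CPM at 4 weeks (log2 fold change 0.58, adjusted p = 0.00542), and Phkb, a subunit of the kinase that activates it, had 433, 399 and 444 CPM at 8 weeks, against 299 and 293 CPM at 4 weeks (log2 fold change 0.52, adjusted p = 0.00488). Pgk1, phosphoglycerate kinase, moved the other way, with 140, 144 and 143 CPM at 8 weeks, against 230 and 236 CPM at 4 weeks (log2 fold change −0.71, adjusted p = 0.000958). Pfkm and Pgk1 passed without any 1 library. Pygm was lost without 4 weeks replicate 1 (adjusted p = 0.0547) or 2 (0.0565), and Phkb without 4 weeks replicate 2 (0.0668). The list counted 3 higher and 2 lower without 4 weeks replicate 1, 1 and 1 without 4 weeks replicate 2, and 2 and 3 with library totals. The count of higher genes thus moved with the scaling and with each 4-week library.

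Of 26 genes for fatty acid uptake and oxidation 7 were lower and 0 higher, with a median log2 fold change of −0.23. Fabp3, the fatty acid carrier of heart and slow muscle, had 44.3, 66.1 and 53.7 CPM at 8 weeks, against 101 and 111 CPM at 4 weeks (log2 fold change −0.96, standard error 0.146, adjusted p = 0.00164). Acads, an acyl-CoA dehydrogenase of mitochondria, had 16.9, 17.8 and 16.2 CPM at 8 weeks, against 24.9 and 24.7 CPM at 4 weeks (log2 fold change −0.55, adjusted p = 0.00307). Of 79 nuclear genes of the respiratory chain, 69 had a negative log2 fold change (median −0.15), against 7604 of all 14976 genes tested. Past the threshold 10 of the 79 were lower and 0 higher, and this 12.7% is near the 8.95% of all genes that were lower. Among them Cyc1, cytochrome c1 of complex III, had 86.7, 98.3 and 93.9 CPM at 8 weeks, against 131 and 134 CPM at 4 weeks (log2 fold change −0.51, adjusted p = 0.00426). Fabp3, Acads and Cyc1 passed without any 1 library. Without 8 weeks replicate 2 the counts were 11 lower for fatty acid genes and 21 lower and 1 higher for respiratory genes. The lower counts were 3 and 1 without 4 weeks replicate 1, 2 and 2 without 4 weeks replicate 2, and 4 and 5 without 8 weeks replicate 1. For respiratory genes it was 5 without 8 weeks replicate 3 and 6 without either 6-week library. With the length and GC trend removed, 8 respiratory genes were lower and 3 higher, and 6 fatty acid genes were lower and 0 higher. Over all genes tested, that setting gave 9.30% lower and 12.7% higher.

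Kinases and regulators that govern energy use and growth were more often higher than lower. Of 30 genes of the AMPK, mTOR and TSC list 9 were higher and 2 lower, with a median log2 fold change of 0.24. Mtor, the growth kinase itself, had 37.2, 44.1 and 45.3 CPM at 8 weeks, against 24.7 and 27.2 CPM at 4 weeks (log2 fold change 0.70, standard error 0.113, adjusted p = 0.00223). Tsc1, which together with Tsc2 restrains it, had 61.1, 59.2 and 59.6 CPM at 8 weeks, against 37.2 and 36.1 CPM at 4 weeks (log2 fold change 0.71, adjusted p = 0.000729). Srebf1, a transcription factor of lipid synthesis downstream of mTOR, had 20.5, 23.8 and 18 CPM at 8 weeks, against 9.85 and 7.76 CPM at 4 weeks (log2 fold change 1.24, adjusted p = 0.000886). Eef2k, the kinase that slows translation elongation, had 43.6, 50.8 and 54.8 CPM at 8 weeks, against 30.3 and 29.2 CPM at 4 weeks (log2 fold change 0.74, adjusted p = 0.00163). Ddit4, an inhibitor of mTOR that responds to stress and glucocorticoids, had 4.77, 3.88 and 4.85 CPM at 8 weeks, against 16.4 and 17.4 CPM at 4 weeks (log2 fold change −1.91, standard error 0.167, adjusted p = 0.0001), so that Ddit4 fell and Mtor rose. All 5 genes passed without any 1 library, while the list counted 5 higher without 4 weeks replicate 2.

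Of 24 genes of calcium-dependent transcription, 9 were higher and 1 was lower, with a median log2 fold change of 0.32. The acetyltransferases Ep300 and Crebbp, coactivators of many muscle transcription factors, had 43.7, 44.9 and 55.1 CPM at 8 weeks, against 27.8 and 25.3 CPM at 4 weeks (log2 fold change 0.85, adjusted p = 0.00173) and 57.9, 59.4 and 68.4 CPM at 8 weeks, against 38.9 and 36.8 CPM at 4 weeks (log2 fold change 0.71, adjusted p = 0.00181). Hdac4, a class II histone deacetylase that leaves the nucleus on calcium signals, had 44.1, 49.9 and 50.3 CPM at 8 weeks, against 33.4 and 32.7 CPM at 4 weeks (log2 fold change 0.54, adjusted p = 0.00548). Rcan1, an inhibitor of calcineurin that calcineurin itself induces, had 33, 57.4 and 29.2 CPM at 8 weeks, against 95.5 and 85.2 CPM at 4 weeks (log2 fold change −1.18, adjusted p = 0.00458), and 8 weeks replicate 2 was the highest of its group. Ep300, Crebbp and Rcan1 passed without any 1 library. Hdac4 did not pass without 4 weeks replicate 2 (adjusted p = 0.068) or with library totals (0.12). The higher count was 3 and 2 without 4 weeks replicate 1 and 2, and 2 with library totals.

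Ubiquitin ligases of muscle tag proteins for the proteasome. Of 26 genes of atrophy ligases, FoxO and Asb, 12 were higher, 1 was lower and the others did not pass, with a median log2 fold change of 0.38. Fbxo32 (chr15:58175879-58214932), atrogin-1, a ligase that FoxO factors induce in wasting muscle, had 197, 181 and 184 CPM at 8 weeks, against 51.2 and 56.9 CPM at 4 weeks (log2 fold change 1.79, standard error 0.159, adjusted p = 0.000104). The lowest 8-week library was over 3 times the higher 4-week library. Asb15 (chr6:24528144-24573164), a substrate adaptor of cullin ligases found mainly in muscle, had 34.6, 32.8 and 39.6 CPM at 8 weeks, against 11.7 and 12.2 CPM at 4 weeks (log2 fold change 1.57, standard error 0.119, adjusted p = 4.29e-05). Its relatives Asb10 and Asb2 had 54.6, 55.7 and 53.1 CPM at 8 weeks, against 26.8 and 22.9 CPM at 4 weeks (log2 fold change 1.13, adjusted p = 0.000124) and 187, 207 and 195 CPM at 8 weeks, against 80 and 90.1 CPM at 4 weeks (log2 fold change 1.21, adjusted p = 0.000394). Klhl40, which protects thin filament proteins, was the lower gene (log2 fold change −0.60, adjusted p = 0.0051), and its call ended without 4 weeks replicate 2 (adjusted p = 0.0742). The higher count was 8 and 7 without 4 weeks replicate 1 and 2, and 5 with library totals, and Fbxo32, Asb15, Asb10 and Asb2 kept their call in each of these. Of 37 proteasome genes 2 were higher and 0 lower (0 higher without either 4-week library and with library totals). The higher count was 3 without 8 weeks replicate 3 and 6 with the length and GC trend removed. Of 82 cytosolic ribosomal protein genes 0 were higher and 1 was lower, but 6 were lower without 8 weeks replicate 2 and 4 with library totals, 2 were higher without 8 weeks replicate 3, and 5 were higher and 2 lower with the length and GC trend removed. Without any of the other libraries 0 passed.

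Polyamines are small cations needed for growth, and Amd1 encodes the decarboxylase that supplies their synthesis. Amd1 (chr10:40287458-40302186) had 469, 466 and 563 CPM at 8 weeks, against 166 and 79.5 CPM at 4 weeks (log2 fold change 2.02, standard error 0.263, adjusted p = 0.00076). The 4-week libraries differed by about 2-fold, and every 8-week library was above both. Amd1 shares sequence with related copies, among which its counts may have been split. Sat1, which acetylates polyamines for export and breakdown, had 6.55, 10.2 and 6.61 CPM at 8 weeks, against 16.3 and 16.9 CPM at 4 weeks (log2 fold change −1.09, adjusted p = 0.00173). Azin1, an activator of ornithine decarboxylase, was lower (log2 fold change −0.55, adjusted p = 0.0187), but not without 4 weeks replicate 1 (adjusted p = 0.191). Odc1, ornithine decarboxylase, and Smox, spermine oxidase, did not pass (log2 fold change 0.64, adjusted p = 0.102, and log2 fold change 1.09, adjusted p = 0.0662). Of 11 polyamine genes 1 was higher and 2 were lower, against 3 higher and 2 lower without 8 weeks replicate 1 and 2 higher and 1 lower without 4 weeks replicate 1.

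Growth factors and their binding proteins moved in both directions, with 5 of 24 genes of the IGF, growth hormone and myostatin list higher and 6 lower. Igf2, given above with the imprinted genes, is also counted among the lower genes. Igf1, the growth factor that growth hormone induces, had 44, 38.7 and 54.1 CPM at 8 weeks, against 96.7 and 82 CPM at 4 weeks (log2 fold change −0.97, standard error 0.134, adjusted p = 0.000996). Mstn, myostatin, the secreted brake on muscle growth, had 72.1, 67.2 and 82.6 CPM at 8 weeks, against 35.6 and 44.7 CPM at 4 weeks (log2 fold change 0.88, standard error 0.155, adjusted p = 0.00348). The 2 factors thus moved in opposite directions, each without overlap between the ages and past the threshold without any 1 library. The follistatin-like protein Fstl1 had 73, 67.2 and 54.7 CPM at 8 weeks, against 138 and 167 CPM at 4 weeks (log2 fold change −1.23, adjusted p = 0.000324). Igfbp7, which binds insulin-like growth factors, had 19.3, 19.4 and 17.7 CPM at 8 weeks, against 34.8 and 37.6 CPM at 4 weeks (log2 fold change −0.94, adjusted p = 0.000302). The activin receptor Acvr2b (log2 fold change 0.78, adjusted p = 0.0112), the growth hormone receptor Ghr (log2 fold change 0.45, adjusted p = 0.0113) and the estrogen receptor Esr1 (log2 fold change 0.56, adjusted p = 0.00433) were higher. Without 4 weeks replicate 2 their adjusted p was 0.128, 0.104 and 0.0543, and without 4 weeks replicate 1 that of Ghr was 0.0827. With library totals it was 0.0551, 0.213 and 0.0802, and 1 gene of the list was higher. The higher count was 3 and 2 without 4 weeks replicate 1 and 2.

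Of 19 circadian clock genes 9 were higher and 1 was lower, with a median log2 fold change of 0.36. Ciart, a repressor of the clock, had 4.05, 4.28 and 4.01 CPM at 8 weeks, against 1.91 and 1.2 CPM at 4 weeks (log2 fold change 1.40, standard error 0.198, adjusted p = 0.00109), and it passed without any 1 library. Bhlhe40, a repressor that binds E-boxes, was higher (log2 fold change 0.69, adjusted p = 0.00525) but not without 4 weeks replicate 2 (adjusted p = 0.0569). Nfil3, which represses D-box genes, was lower (log2 fold change −0.68, adjusted p = 0.0225) but not without 4 weeks replicate 1 (0.0664), 4 weeks replicate 2 (0.144) or 8 weeks replicate 1 (0.0588). The higher count was 5 and 2 without 4 weeks replicate 1 and 2, and 3 with library totals. The hour at which muscles were taken is not given in the sources used here, and its part in these values was not tested.

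The core clock factors bind the E-box CACGTG, which 7.15% of all promoters held within the same 300 bases. Ciart held 3 matches, starting 116, 58 and 44 bases before the start, and its promoter is shown with them in capitals. The windows of Rora and Nfil3 held none.
Ciart, chr3:95882179-95882478, minus strand: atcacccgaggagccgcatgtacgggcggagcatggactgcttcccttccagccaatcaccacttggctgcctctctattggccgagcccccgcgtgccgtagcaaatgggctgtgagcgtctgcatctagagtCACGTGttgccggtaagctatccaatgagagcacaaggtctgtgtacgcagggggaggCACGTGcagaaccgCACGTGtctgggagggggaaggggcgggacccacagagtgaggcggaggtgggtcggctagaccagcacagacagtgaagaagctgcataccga

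Genes that respond to glucocorticoids and to handling were lower or varied within the 8-week group. Of 14 glucocorticoid-responsive genes 7 were lower and 1 was higher, with a median log2 fold change of −0.32. Ddit4, given above with the AMPK, mTOR and TSC list, is also counted among the lower genes. Metallothioneins, which bind zinc, fell, Mt2 with 1.43, 1.11 and 1.99 CPM at 8 weeks, against 7.35 and 6.67 CPM at 4 weeks (log2 fold change −2.22, standard error 0.2, adjusted p = 0.000111) and Mt1 with 2.24, 4.74 and 3.66 CPM at 8 weeks, against 13 and 9.79 CPM at 4 weeks (log2 fold change −1.69, adjusted p = 0.000943). Cebpd, a transcription factor of the acute phase, had 6.36, 7.95 and 6.68 CPM at 8 weeks, against 17.4 and 16.8 CPM at 4 weeks (log2 fold change −1.29, adjusted p = 0.000124). None of the 3 overlapped between the ages or lost its call without any 1 library. The gene that was higher, Klf9 (log2 fold change 0.38, adjusted p = 0.0246), did not pass without either 4-week library (adjusted p = 0.156 and 0.145) or with library totals (0.381). Of 22 immediate early and heat shock genes, which respond within minutes to activity or stress, 3 were lower and 0 higher. Atf3, a stress-induced factor, had 1.35, 5.14 and 1.22 CPM at 8 weeks, against 12.8 and 17.7 CPM at 4 weeks (log2 fold change −2.57, adjusted p = 0.00528), with 8 weeks replicate 2 well above the other 8-week libraries. Its call ended with robust edgeR (adjusted p = 0.0983). Without 8 weeks replicate 2 the count was 12 lower, and without 4 weeks replicate 1 or 2 it was 2 and 1.

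Chaperones of the endoplasmic reticulum, where secreted proteins fold, were lower in 8 of 20 and higher in 1, with a median log2 fold change of −0.27. Manf, a small protein of the unfolded protein response, had 4.18, 4.25 and 4.27 CPM at 8 weeks, against 7.64 and 7.76 CPM at 4 weeks (log2 fold change −0.86, adjusted p = 0.00103). The disulfide isomerase Pdia6 (log2 fold change −0.81, adjusted p = 0.00156) and the chaperone Hsp90b1 (log2 fold change −0.62, adjusted p = 0.00232) fell too, and all 3 passed without any 1 library. The collagen chaperone Serpinh1, given above, is also in this list.

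Interferon-stimulated genes, part of antiviral defense, were lower in 11 of 22 and higher in 0, with a median log2 fold change of −0.66. Bst2, tetherin, which holds back virus particles, had 1.67, 1.69 and 1.7 CPM at 8 weeks, against 3.37 and 4.11 CPM at 4 weeks (log2 fold change −1.15, adjusted p = 0.00143), and Ifi27 had 8.04, 8.04 and 6.68 CPM at 8 weeks, against 12.8 and 11.3 CPM at 4 weeks (log2 fold change −0.66, adjusted p = 0.0046). Bst2 passed without any 1 library, but without 4 weeks replicate 1 the list counted 2 and Ifi27 had an adjusted p of 0.0541. Without 4 weeks replicate 2 it counted 7. Class II antigen presentation genes moved the other way, and 4 of 17 antigen presentation genes were higher and 0 lower. The summed level of the list was 186, 169 and 133 CPM at 8 weeks, against 133 and 123 CPM at 4 weeks. For the list as a whole, 8 weeks replicate 3 thus lay at the level of the 4-week libraries. Cd74, the invariant chain, had 18.8, 17.2 and 14.3 CPM at 8 weeks, against 9.13 and 5.63 CPM at 4 weeks (log2 fold change 1.18, adjusted p = 0.00414). H2-Aa (log2 fold change 0.98, adjusted p = 0.00369), H2-Eb1 (log2 fold change 1.11, adjusted p = 0.00482) and H2-Ab1 (log2 fold change 0.88, adjusted p = 0.00576), the class II chains, were higher by about 2-fold. All 4 were lost without 4 weeks replicate 2 (adjusted p = 0.0568, 0.0545, 0.0636 and 0.0864).

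Among markers of the other cells in whole muscle, tendon cell markers were lower in 6 of 11, and their summed level was 228, 202 and 171 CPM at 8 weeks, against 271 and 312 CPM at 4 weeks. Tnmd, tenomodulin, had 14.1, 9.09 and 9.98 CPM at 8 weeks, against 30.7 and 37.8 CPM at 4 weeks (log2 fold change −1.63, adjusted p = 0.000718), and Kera, keratocan, had 17.9, 14.9 and 15.5 CPM at 8 weeks, against 40.1 and 42.6 CPM at 4 weeks (log2 fold change −1.36, adjusted p = 0.000302). Fibroblast markers were lower in 5 of 16 and higher in 1. Their summed level of 1553, 1468 and 1180 CPM at 8 weeks overlapped with the 1258 and 1315 CPM at 4 weeks. Mfap5, a microfibril protein of fibroblasts, fell (log2 fold change −1.11, adjusted p = 0.000376), as did Lum, the proteoglycan lumican (log2 fold change −0.78, adjusted p = 0.00123). Without 4 weeks replicate 2 the lower counts were 2 for tendon cells and 3 for fibroblasts, and Tnmd, Kera, Mfap5 and Lum passed without any 1 library. Several of these markers are matrix genes and repeat the lists above. Whether fewer tendon or fibroblast cells were sampled beside the change in matrix was not tested.

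Endothelial markers were lower in 6 of 14 and higher in 2, with summed levels of 298, 308 and 272 CPM at 8 weeks, against 340 and 368 CPM at 4 weeks. Emcn, endomucin of capillaries and veins, had 7.96, 5.7 and 4.81 CPM at 8 weeks, against 13.5 and 12.6 CPM at 4 weeks (log2 fold change −1.07, adjusted p = 0.00229). Cdh5, the cadherin of endothelial junctions (log2 fold change −0.47, adjusted p = 0.0112), and Pecam1 (log2 fold change −0.50, adjusted p = 0.0148) passed only with 4 weeks replicate 2 (adjusted p = 0.118 and 0.193 without it), and the lower count was then 1. Higher endothelial markers numbered 0 without either 4-week library and with library totals. Of 12 pericyte and smooth muscle markers 3 were lower and 2 higher, and 0 were higher without either 4-week library, without 6 weeks replicate 2, without 8 weeks replicate 1 or with library totals (then 4 lower). Acta2, smooth muscle actin, had 17.9, 18.7 and 19 CPM at 8 weeks, against 50.7 and 50.8 CPM at 4 weeks (log2 fold change −1.45, standard error 0.102, adjusted p = 3.66e-05), while the summed level of the list was 790, 756 and 756 CPM at 8 weeks, against 815 and 843 CPM at 4 weeks. The decrease of Acta2 was thus larger than that of the list it belongs to.

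Macrophage markers were lower in 4 of 14 and higher in 1. Lyve1, a hyaluronan receptor of resident macrophages and lymphatic vessels, had 5.21, 4.77 and 5.36 CPM at 8 weeks, against 9.21 and 9.63 CPM at 4 weeks (log2 fold change −0.88, adjusted p = 0.00103). Mrc1 (log2 fold change −0.83, adjusted p = 0.00405) and Cd163 (log2 fold change −0.61, adjusted p = 0.00818), scavenger receptors of resident macrophages, were lower, and Ccr2, the receptor of recruited monocytes, was higher (log2 fold change 0.88, adjusted p = 0.0219). Without 4 weeks replicate 2 these 3 had an adjusted p of 0.0573, 0.0774 and 0.177, and the lower count was 1. It was 7 without 8 weeks replicate 1 and 8 with library totals. Ccr2 also missed the threshold without 4 weeks replicate 1 (0.0712) or 8 weeks replicate 1 (0.051). Red cell genes were lower in 5 of 7. The globin Hbb-bs had 56, 50.1 and 53.4 CPM at 8 weeks, against 100 and 84.3 CPM at 4 weeks (log2 fold change −0.79, adjusted p = 0.00378). Their summed level was 136, 139 and 125 CPM at 8 weeks, against 208 and 186 CPM at 4 weeks, and the lower count was 1 without 4 weeks replicate 1 and 3 without 4 weeks replicate 2. How much blood each muscle held was not tested.

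Most defining genes of satellite cells did not pass. Pax7, the transcription factor that marks satellite cells, had 1.7, 2.46 and 1.67 CPM at 8 weeks, against 1.99 and 1.87 CPM at 4 weeks (log2 fold change 0.01, standard error 0.218, adjusted p = 0.983), and its groups overlapped. Myf5 (log2 fold change −0.47, adjusted p = 0.189), Cdh15 (log2 fold change 0.19, adjusted p = 0.334) and Calcr (log2 fold change −0.43, adjusted p = 0.237) did not pass either. Chodl, chondrolectin, was lower (log2 fold change −0.70, adjusted p = 0.00661), but not without 4 weeks replicate 2 (adjusted p = 0.0732). In the wider list of satellite cell and Notch genes 5 of 21 were lower and 1 was higher, with a median log2 fold change of −0.35. Megf10, a receptor of satellite cells that interacts with Notch, had 1.81, 1.45 and 1.7 CPM at 8 weeks, against 3.82 and 4.16 CPM at 4 weeks (log2 fold change −1.27, standard error 0.172, adjusted p = 0.000897). Vcam1, an adhesion molecule of quiescent satellite cells and of other cells, had 3.59, 3.39 and 3.4 CPM at 8 weeks, against 6.64 and 5.55 CPM at 4 weeks (log2 fold change −0.81, adjusted p = 0.00277). Both were lower in every 8-week library and passed without any 1 library, while the list counted 2 lower without 4 weeks replicate 2 and 8 with library totals. A p that misses the threshold at this size does not show that Pax7 was equal.

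The 6-week libraries, whose mean was not part of the comparison, lay between the ages for some of these genes and outside them for others. Mean levels of H19 were 1413 CPM at 4 weeks, 679 CPM at 6 weeks and 178 CPM at 8 weeks (n = 2, 2 and 3). Those of Fbxo32 were 54.1 CPM at 4 weeks, 106 CPM at 6 weeks and 187 CPM at 8 weeks, and those of Col3a1 were 1229 CPM at 4 weeks, 708 CPM at 6 weeks and 449 CPM at 8 weeks. These 3 genes thus ran in the order of age. Mki67 was lowest at 6 weeks, with 6.35 CPM at 4 weeks, 0.801 CPM at 6 weeks and 1.58 CPM at 8 weeks. Asb15 was highest at 6 weeks, with 12 CPM at 4 weeks, 42.3 CPM at 6 weeks and 35.7 CPM at 8 weeks, and so was Ddit4, with 16.9 CPM at 4 weeks, 34.1 CPM at 6 weeks and 4.5 CPM at 8 weeks. Actc1 had 2087 CPM at 4 weeks, 512 CPM at 6 weeks and 301 CPM at 8 weeks. No test was made of these 3-age patterns.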

How the data were processed

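Gastrocnemius RNA of 7 mice was depleted of ribosomal RNA, made into strand-specific libraries and sequenced as single-end reads. Per the study's methods the authors used Trimmomatic for trimming, STAR for alignment (GRCm38) and featureCounts, set to read strand, for counting by gene name; the deposited counts are the only values used here. How reads shared by near-identical copies were counted is not given in the sources used here. The authors also deposited normalized values (their counts divided by a size factor), their own DESeq2 fold changes and p-values, and pathway tables, which were not used.

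For analysis edgeR 4.0.16 was run under R 4.3.3. Genes that passed filterByExpr at a minimum count of 10 were scaled by TMM and tested by the quasi-likelihood F test in 1 model of all 7 libraries with a mean for each age (4 residual degrees of freedom, common dispersion 0.0141). P-values were adjusted by Benjamini-Hochberg over the 14976 genes, with a threshold of 0.05. The standard error is the log2 fold change divided by the square root of F. Gene lists are described by counts and medians without a test. Of the symbols, 26 had been turned into dates; 21 of these were tested and none is named. Coordinates and lengths (97.0% of genes) are from GENCODE M21 of GRCm38, and sequences from RefSeq GRCm38.p6. Plots used matplotlib 3.10.9 under Python 3.11.15.

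Members, lists and alternatives were chosen with earlier results of these data known. The text names, by a rule, the 12 largest increases and 12 largest decreases among genes that averaged 1 CPM or more and did not overlap, the 6 changed genes with the most counts, up to 4 higher and 4 lower genes per list with the smallest p, all members of lists of up to 12 genes, and 7 genes the study names. Not every gene covered is described, and some items are not reported here. Alternatives were scaling by upper quartile, by DESeq2 size factors or by library totals, DESeq2 1.42.0, limma-voom (limma 3.58.1), robust edgeR, other filters, abundant or mitochondrial genes left out, only 5 libraries, a replicate block, stricter thresholds, each library left out, and, added after seeing the data, removal of a trend with length and GC content. The code was tested on simulated data.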

Additional observations from a re-analysis of the deposited data

How the results depend on the processing

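The count of 2768 genes (1427 higher, 1341 lower) stayed within 1.5 times under the other scalings, tests and filters, except that library totals left 438 higher. At an adjusted p under 0.01 it was 1087 (546 higher, 541 lower). At an adjusted p under 0.05 and a fold over 1.5 the count was 1642 (720 higher). Without 1 library it ranged from 786 to 2541, higher genes from 371 to 1290 and lower genes from 415 to 1251. Nothing in the labels pairs samples by replicate number. Deviations of libraries with the same number correlated by −0.0927 and 0.00758. These values cannot settle pairing, since the deviations of the 2 libraries at 4 weeks mirror each other. With the replicate number as a block 2316 genes passed (1226 higher, 1090 lower). With only the 5 libraries compared, 2366 passed (1212 higher, 1154 lower). Of the 148 named genes past the threshold, 101 passed without any 1 library and 0 reversed in any alternative. Without 4 weeks replicate 1 and 2, 19 and 43 of them were lost, and with library totals 17. Most named genes were picked for a large change or a small p, so their counts do not describe how well all genes that passed held. With 2 and 3 libraries a group, a gene that did not pass is not shown to be equal. No group had enough libraries to look for single outlying values.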

Other observations

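Genes of fat cells and of lipid synthesis varied widely within the 8-week group. Of 11 adipocyte markers 1 was higher and 1 lower at 8 weeks, while 4 were higher without 8 weeks replicate 3 and 0 passed without either 4-week library. The median deviation of the list was 0.71, 0.41 and −0.63 on the log2 scale in the 8-week libraries, against −0.16 and −0.07 at 4 weeks. Lep, the hormone leptin of fat cells, had 6.15, 3.94 and 0.738 CPM at 8 weeks, against 0.664 and 0.587 CPM at 4 weeks (log2 fold change 2.54, adjusted p = 0.0231). Scd1, a desaturase that makes monounsaturated fatty acids, had 318, 171 and 64 CPM at 8 weeks, against 58.8 and 42.6 CPM at 4 weeks (log2 fold change 1.86, adjusted p = 0.0229). In both, 8 weeks replicate 3 lay nearest to the 4-week libraries. Neither passed without 4 weeks replicate 1 (adjusted p = 0.113 and 0.0816) or 4 weeks replicate 2 (0.148 and 0.172), and Lep did not pass without 8 weeks replicate 1 (0.0618) or 2 (0.0571). Me1, malic enzyme, which supplies NADPH for lipid synthesis and is also made in muscle, had 62.1, 53.2 and 61.5 CPM at 8 weeks, against 33 and 31.2 CPM at 4 weeks (log2 fold change 0.88, adjusted p = 0.000886) and passed without any 1 library. How much fat each sample held was not tested.

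Of 7 tested mitochondrially encoded mRNAs 1 was lower and 0 higher, and without 8 weeks replicate 2 it was 1 lower and 2 higher. The lower one was mt-Nd6, a subunit of complex I that alone among these mRNAs is encoded on the light strand, with 4.72, 2.09 and 7.09 CPM at 8 weeks, against 14.4 and 14.7 CPM at 4 weeks (log2 fold change −1.66, adjusted p = 0.00718). It passed without any 1 library but not with robust edgeR (adjusted p = 0.0785). In 8 weeks replicate 2 the list as a whole was lowest, with a median deviation of −0.67, against −0.05 and 0.37 in the other 8-week libraries and 0.13 and −0.29 at 4 weeks.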
